A study of Mus musculus with 106 samples.

Results

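The libraries described here hold ribosome-bound mRNA of vGluT2 neurons from the cerebellum and the cerebrum of control mice. They were chosen by their labels (control genotype, vGluT2 line, RiboTag immunoprecipitation, called IP from here on), and 11 of the 106 samples of the series met these terms, 5 cerebellar and 6 cerebral IPs. Both tissues came from the same animal in 5 mice, and 1 further mouse gave a cerebral library only. The mice were Hdh Q7/Q7 animals, which carry the normal mouse huntingtin gene, on a 129S4 background and about 9 months old. They were heterozygous for vGluT2-IRES-Cre, a Cre recombinase expressed from the Slc17a6 gene, and for the RiboTag allele, which adds a hemagglutinin tag to the ribosomal protein Rpl22 in every cell where Cre has acted. Tissue came from 1 flash-frozen hemisphere. The cerebral samples held the rest of it, without olfactory bulb or cerebellum. The labels do not give the sex of the animals.

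Other groups served as references. Total RNA of the same line, taken before the immunoprecipitation, came from 4 cerebella and 3 cerebra of controls. IPs of 6 cerebella and 6 cerebra from Hdh Q7/Q200 mice, a knock-in model of Huntington's disease (HD), gave the same contrast in other animals. A cerebral library among these, titled HD_VglutCer_re_R1, had 13546 genes with more than 10 counts and the other 5 had 15648 to 16531. The supplement says that some libraries of the series were sequenced again with longer reads, without naming them in its text. IPs of 6 cerebella and 6 cerebra from controls of the Gad2-IRES-Cre line gave it in GABAergic neurons. The cerebral sample mixes cortex, hippocampus, thalamus, hypothalamus and other regions, and Cre under Slc17a6 marks each cell that ever expressed the gene, with its descendants.

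Vesicular glutamate transporters load glutamate into synaptic vesicles, and in adult brain Slc17a6 (vGluT2) serves mainly thalamic, hypothalamic and brainstem neurons, while Slc17a7 (vGluT1) serves most neurons of the cortex and hippocampus. Granule cells, by far the most numerous glutamatergic neurons of the cerebellum, arise from the rhombic lip and contact Purkinje cells through parallel fibres. The comparison asks how the ribosome-bound mRNA of glutamatergic neurons marked by 1 Cre driver differs between these parts of the brain.

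The 5 cerebellar libraries held 34229855 to 40085593 counts (median 36498914), and the 6 cerebral libraries held 29903359 to 68022491 (median 36255018). All levels are in CPM, the count divided by the TMM-scaled total of its library and multiplied by 1000000, and a difference is the log2 fold change of cerebellum over cerebrum, positive where the cerebellum was higher. Intervals and limits from counts cover counting error only.

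The Cre driver gene itself was enriched in the IPs. Slc17a6 was higher in IP than in total RNA by a log2 fold change of 1.89 in the cerebellum (adjusted p 0.0101) and 2.53 in the cerebrum (adjusted p 0.0017). Gad2, which makes GABA in inhibitory neurons, was lower in IP than in total RNA, by -2.60 in the cerebellum (adjusted p 5.9e-06) and -2.22 in the cerebrum (adjusted p 3.14e-05). Marker lists of glia and vessels had medians of -3.11 to -3.68 in the cerebellum and -2.85 to -4.53 in the cerebrum for the same comparison. The RiboTag gene Rpl22 did not pass the test between tissues, at 57.9 ± 8.26 CPM (SD, n = 5) in the cerebellum and 69.1 ± 14.6 CPM (SD, n = 6) in the cerebrum (log2 fold change -0.24, adjusted p 0.0752). It passed without replicate 3 of either tissue, at -0.31.

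A pair of libraries stood apart from their groups. In cerebellum replicate 5, 403 genes lay more than 2-fold from the mean of the other 4 cerebellar libraries, against 62 to 163 genes in each of those. Its component 1 score was 38.01, while the other cerebellar libraries had 50.46 to 60.91 and the cerebral ones -45.78 to -42.93. Tcf7l2, a thalamic transcription factor, was at 100 CPM in it and at 0.299 to 0.905 CPM in the other 4, and Nrgn, a calmodulin-binding protein of forebrain neurons, was at 203 CPM against 0.577 to 2.06. The thalamic factors Shox2 (28.7 CPM) and Lhx9 (24.4 CPM), the neuropeptide gene Cck (32.9 CPM) and Slc17a6 (104 CPM) were also highest there, while Emx1 and Fezf2 had no count in it. Cerebrum replicate 5, from the same mouse, had the highest cerebral levels of the granule cell genes Gabra6 (2.61 CPM) and Cbln3 (8.8 CPM). In cerebrum replicate 1, 1023 genes lay more than 2-fold from the rest, against 28 to 127 in the others, and its levels shifted with exon length: the median deviation was 0.27 for genes of at most 2.86 kb and -0.25 for genes of at least 6.91 kb. Cerebellum replicate 1, from the same mouse, shifted the same way (0.16 and -0.19), and cerebrum replicate 3 the other way (-0.11 and 0.18). Snap25, a membrane fusion protein, was at 3040 CPM in cerebrum replicate 1 and higher in the other 5 cerebral libraries, with a median of 6660 CPM over all 6. The cause of either deviation was not tested, and some results below are also given without 1 or both of them. Leaving out either library of a mouse takes that mouse out of the paired difference, so replicates of both tissues are named together where this changed a call.

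**Figure D1:**
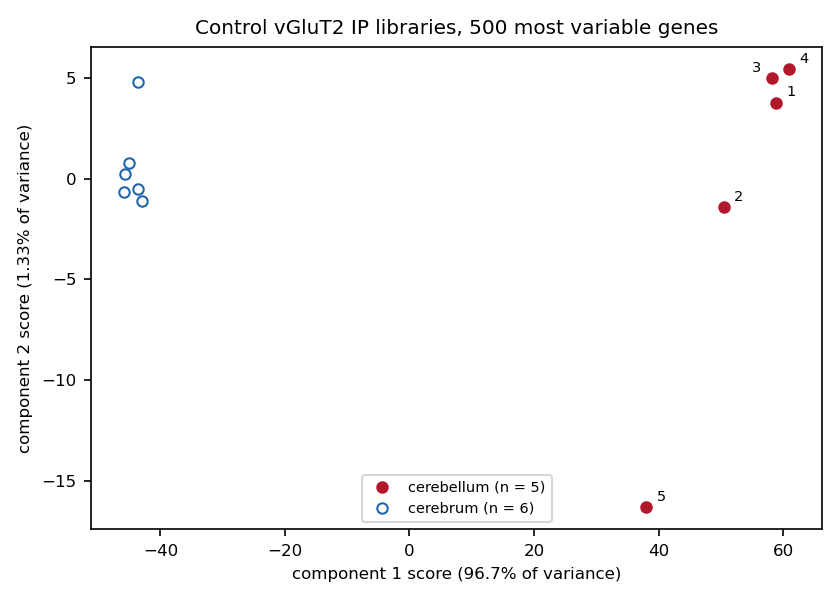
Scores of the 11 control vGluT2 IP libraries on the first components of the 500 most variable genes, where component 1 holds 96.7% and component 2 holds 1.33% of their variance. Filled points are the 5 cerebellar libraries with their replicate numbers and open points are the 6 cerebral ones. Tissue separates all 11 libraries along component 1, and cerebellum replicate 5 sits at 38.01 there and at -16.31 on component 2.

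Cerebellar and cerebral vGluT2 neurons differed in most of the genes tested. Of 14277 protein-coding genes tested, 4442 (31.1%) were higher in the cerebellum and 4639 (32.5%) were lower. A difference beyond 2-fold was called for 1196 higher genes (8.38%) and 2191 lower genes (15.3%), so lower genes outnumbered higher ones at that size. Counts within lists of genes, here and below, are to be read beside these shares of all genes. All 18 granule cell genes and 21 of 27 factors of the hindbrain and granule lineage were among the higher ones. Among the lower ones were 18 of 22 pyramidal neuron markers, 20 of 28 neuropeptide precursors and 35 of 46 neuropeptide and monoamine receptors. The cerebellar and cerebral libraries did not overlap at 6769 of 14265 gene symbols (47.5%). Among the genes beyond 2-fold, 1182 of the higher and 2062 of the lower had no overlap, and 1194 and 2175 had the called direction in all 5 mice with both tissues. The only higher genes without it were the little-studied Gm14440 (1 of 5 mice) and Pram1 (4 of 5 mice), both under 1 CPM on average. Gm14440 was at 0.00 without cerebellum replicate 1, and Pram1 was at 7.80 without cerebellum replicate 2. Without cerebellum replicate 5 the counts beyond 2-fold were 1159 higher and 2265 lower, and without cerebrum replicate 1 as well they were 1074 and 2177.

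Granule cell genes led the higher side. Gabra6 (ENSMUSG00000020428.13, chromosome 11, bases 42306437 to 42321072 of GRCm38), the GABA-A receptor subunit found almost only on granule cells, was at 1190, 1360, 1080, 1250 and 970 CPM in cerebellum replicates 1 to 5. Its lowest, median and highest cerebral levels were 0.0241, 0.393 and 2.61 CPM. Every cerebellar library was thus far above every cerebral one, and the log2 fold change was 11.10 (SE 1.0, adjusted p 3.73e-05, higher in 5 of 5 mice). Cbln3 (ENSMUSG00000040380.14, chromosome 14, bases 55878913 to 55884392), a secreted partner of Cbln1 at parallel fibre synapses, was at 5000, 4650, 4460, 4230 and 3480 CPM in the cerebellum and at 0.313, 2.12 and 8.8 CPM in the cerebrum (lowest, median, highest). These groups did not overlap either, and the log2 fold change was 11.06 (SE 0.931, adjusted p 2.58e-05). The cell adhesion gene Crtam reached 10.74, the giant cadherin Fat2 9.68, the Bcl2 family gene Bcl2l15 9.02 and the FGF pathway gene Cnpy1 8.94. The orphan receptor Mrgprf followed with 8.50, the matrix gene Ltbp2 with 8.45 and the hindbrain homeobox gene En2 with 8.16. Without cerebellum replicate 5, Gabra6 was at 12.21, Cbln3 at 11.77 and Crtam at 11.99, and without replicate 4 Gabra6 was at 11.79. Chil5, a chitinase-like gene, had 3 counts over all cerebral libraries, all in replicate 5, and a mean of 12.1 CPM in the cerebellum. The ratio of cerebellum to cerebrum was 984, with a 95% counting interval of 337 to 4770.

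The lower end held genes of the telencephalon and hypothalamus, among others. Fezf2 (ENSMUSG00000021743.6, chromosome 14, bases 12342094 to 12348189), which specifies deep-layer cortical projection neurons, had no count in any of the 5 cerebellar libraries. In the cerebrum it was at 28.5, 34.8 and 38.8 CPM (lowest, median, highest), so it was at least 2157-fold lower in the cerebellum with a floor of 3 counts over the group. The ratio of cerebrum to cerebellum was 2600 (95% counting interval 889 to 12600) for Pmch, the melanin-concentrating hormone precursor of the lateral hypothalamus, with 3 cerebellar counts. It was 1490 (413 to 12300) for Trh, thyrotropin-releasing hormone, with 2 counts, and 1110 (381 to 5410) for Slc6a3, the dopamine transporter, with 3 counts. These cerebellar counts were in replicates 1 and 2 for Pmch, 2 and 5 for Trh and 2 and 4 for Slc6a3. The other genes of this end were measured in more than 3 cerebellar counts. Gm11549, a gene of unknown function, had a log2 fold change of -10.38, the thyroid hormone-binding protein Crym -10.32, the postsynaptic protein gene Ddn -10.21 and the cortical homeobox gene Emx1 -9.71. Gm11549 had no cerebellar count outside replicate 5, without which Crym was at -12.23 and Ddn at -11.34, and Emx1 was at -10.36 without replicate 1.

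Nrgn shows how far a library can shift a mean. Its cerebellar levels were 1.61, 1.7, 2.06, 0.577 and 203 CPM, and its cerebral levels 2070, 2410 and 3490 CPM (lowest, median, highest). All cerebellar libraries were below all cerebral ones, and replicate 5 was far above the other 4. The log2 fold change was -9.93 with all libraries (SE 1.47, adjusted p 0.000558) and -10.85 without replicate 5. These values come from differences within mice. The group means were 41.9 CPM in the cerebellum and 2520 CPM in the cerebrum, and without mouse as a block the log2 fold change was -5.91.

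Scaled by exon length, the largest level differences above 0 were those of granule cell genes and a pair of other abundant mRNAs. Cbln3 was at 898 CPM per kb in the cerebellum and 0.661 in the cerebrum, and Cbln1 was at 761 and 17.5. The calcium buffer Calb2 (calretinin) was at 820 and 79.3 CPM per kb, Gabra6 at 470 and 0.332, and Nrep, a small protein of growing neurites, at 460 and 23.6. The largest below 0 were those of Nrgn, at 1740 CPM per kb in the cerebrum and 28.8 in the cerebellum, where replicate 5 held nearly all of it, and of the ubiquitin hydrolase Uchl1, at 794 and 142. The actin-binding Tmsb4x was at 653 CPM per kb in the cerebrum and 104 in the cerebellum, the selenoprotein Selenow at 747 and 229, and the calcium sensor Hpca (hippocalcin) at 538 and 25.1. Scaled by the median transcript length instead, 3 of these 10 genes were still among the 5 largest on either side.

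**Figure D2:**
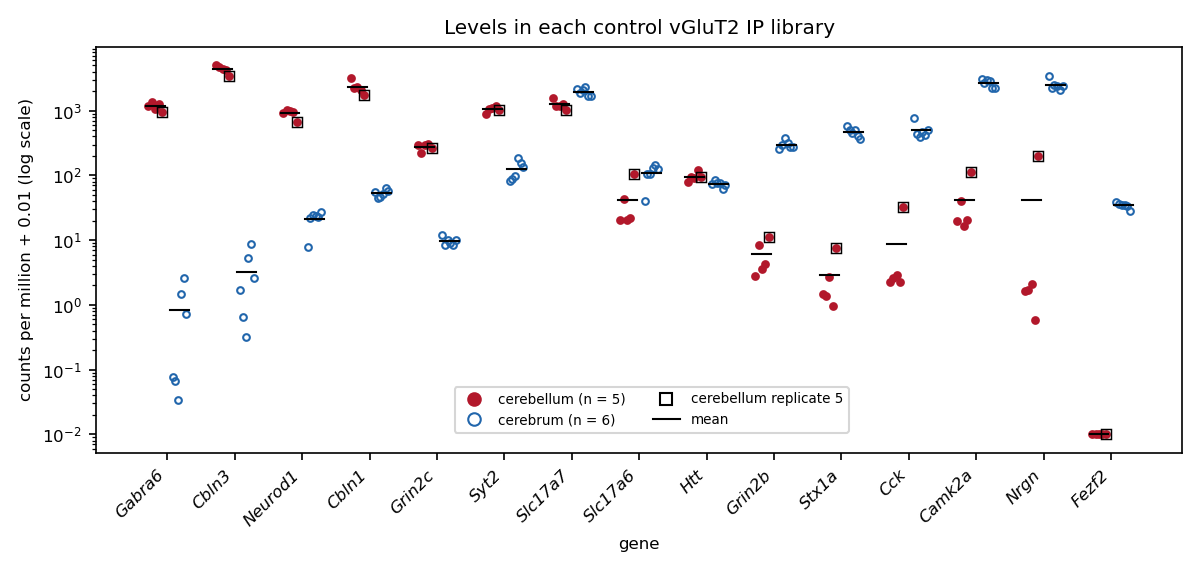
Levels of 15 genes in each control vGluT2 IP library, as CPM plus 0.01 on a log axis. Filled points are the 5 cerebellar libraries, open points the 6 cerebral ones, bars the group means, and squares mark cerebellum replicate 5. Gabra6 and Cbln3 are separated by more than 2 orders of magnitude in every library, Slc17a6 and Htt overlap between tissues, and replicate 5 is the highest cerebellar library for Slc17a6, Cck, Camk2a and Nrgn.

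All 18 genes of the granule cell list were higher in the cerebellum beyond 2-fold, with a median log2 fold change of 5.44 beside 0.00 for all genes tested. Their summed level was 19500, 17500, 18000, 18300 and 14700 CPM in cerebellum replicates 1 to 5 and 428 to 570 CPM in the cerebral libraries. The lowest cerebellar sum was that of replicate 5, and the groups did not overlap. Neurod1, a differentiation factor that granule cells keep in the adult, was at 915, 1040, 998, 957 and 677 CPM in the cerebellum and at 7.83, 23 and 27.2 CPM in the cerebrum. The log2 fold change was 5.59 (SE 0.297), and the paired box factor Pax6 reached 6.71 and the zinc finger factor Zic1 5.14. The smallest differences of the list were those of Gabrd at 2.21, Cntn2 at 2.35 and Nfia at 2.89. Cntn2, an axonal adhesion protein, was the most abundant gene of the list in the cerebrum. Of 7 genes for unipolar brush cells, another glutamatergic class of the cerebellum, 5 were higher beyond 2-fold and Grp (-3.12) was lower beyond 2-fold. The T-box factor Eomes was at 29.2, 16.8, 32.8, 34.3 and 27.1 CPM in the cerebellum and at 0.362, 1.17 and 13.1 CPM in the cerebrum. The groups did not overlap, although a pair of cerebral libraries, replicates 1 and 3, lay near 13 CPM. Without cerebellum replicate 5, 4 genes of this list were higher beyond 2-fold, and 3 without replicate 2 or replicate 4 of either tissue or without mouse as a block.

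Nuclear factor I proteins such as Nfia act in granule cell maturation and bind TTGGCA, a motif found on either strand in 14.1% of 32851 mouse promoters of 300 bases. Among the 13 granule list genes with a promoter in that set, the motif was in the promoters of 4, namely Gabra6, Cbln3, Chn2 and Etv1. A gene counted if any of its promoters matched, so this count of genes and the share of promoters are not on the same scale. The full palindrome was in 0.807% of all promoters and in 0 of the 13. The promoter of Gabra6 (GRCm38.p6, chromosome 11, bases 42321023 to 42321322, minus strand) and that of Cbln3 (chromosome 14, bases 55884207 to 55884506, minus strand) had 1 match each, shown in capitals. A match describes the sequence, and binding was not measured.
Gabra6: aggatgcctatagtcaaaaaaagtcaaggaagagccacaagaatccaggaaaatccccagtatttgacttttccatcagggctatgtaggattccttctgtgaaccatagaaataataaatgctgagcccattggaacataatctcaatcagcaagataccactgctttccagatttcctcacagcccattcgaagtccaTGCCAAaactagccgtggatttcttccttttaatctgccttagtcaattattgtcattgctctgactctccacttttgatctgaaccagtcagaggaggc
Cbln3: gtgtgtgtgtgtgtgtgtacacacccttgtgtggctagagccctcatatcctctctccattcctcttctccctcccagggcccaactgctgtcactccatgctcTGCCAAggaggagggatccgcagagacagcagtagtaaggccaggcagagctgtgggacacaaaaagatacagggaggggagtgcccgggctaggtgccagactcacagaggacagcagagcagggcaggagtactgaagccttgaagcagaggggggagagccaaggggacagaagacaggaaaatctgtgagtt

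Transcription factors were listed by the part of the brain in which they are known to act. Of 27 hindbrain and granule lineage factors tested out of 29 listed, 21 were higher beyond 2-fold and 4 were lower, with a median of 3.47. Pax6 and En2 were joined by Barhl2 (6.0), Uncx (5.83), Pax3 (5.76) and Otx2 (5.06). The 4 lower genes were Gbx2, Insm1 (-3.38), Meis2 (-3.32) and Etv5 (-2.25). Gbx2, which in the adult marks thalamic neurons, had no count in the cerebellum and was at least 356-fold lower there. Atoh1, which granule cell precursors express before birth and shortly after, had no count in either tissue. Without cerebellum replicate 5, 19 of these factors were higher beyond 2-fold, and Pax3 was at 6.83 without replicate 4 and 5.15 without replicate 2. Of 34 forebrain and midbrain factors, 28 were lower beyond 2-fold and 2 were higher, with a median of -4.98 (-5.57 without replicate 5). The higher ones were Neurod2 (1.28) and Prox1 (1.64), of which 1 passed 2-fold without cerebellum replicate 5 and cerebrum replicate 1, and Cux1 (1.07) was higher without passing 2-fold. Tbr1 (-8.43), Lhx2 (-5.98) and Bcl11b (-5.74), all factors of the cortex, were among the lowest, and without replicate 5 Lhx2 was at -6.81 and Bcl11b at -6.33 (cerebral library).

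Cortical and hippocampal pyramidal neuron markers were lower in 20 of 22 genes, 18 of them beyond 2-fold, with a median of -5.56 (-5.92 without replicate 5). The 2 exceptions were again Neurod2 and Prox1, which both have known expression in granule cells of the cerebellum or dentate gyrus. Camk2a, the alpha subunit of the calcium/calmodulin kinase of excitatory synapses, was at 19.6, 40, 16.6, 20.7 and 114 CPM in the cerebellum. In the cerebrum it was at 2230, 2790 and 3060 CPM (lowest, median, highest), without overlap and with a log2 fold change of -6.51 (SE 0.547). Thalamic markers were more mixed. Of 17 genes, 9 were lower beyond 2-fold and Calb2 alone was higher beyond 2-fold, with a median of -1.53 (-1.79 without replicate 5). Without cerebellum replicate 3, 5 were lower beyond 2-fold. Calb2 is also on the unipolar brush cell list, and it was the most abundant gene of the thalamic list in the cerebellum. Tcf7l2 was at 0.327, 0.905, 0.299, 0.851 and 100 CPM in the cerebellum and at 31.8, 62.6 and 85.2 CPM in the cerebrum. Replicate 5 was above every cerebral library and the other 4 were below all of them, and the log2 fold change was -5.46 with it and -6.59 without it, and -4.87 without cerebellum replicate 3. Without mouse as a block Tcf7l2 was at -1.60 and did not pass. Of 15 hypothalamic and midbrain markers tested out of 16, 9 were lower beyond 2-fold and 3 were higher (Barhl1, Irx3 and Nhlh2, at 3.46 to 3.47), with a median of -4.10. Barhl1 is also on the granule cell list. Sim1, Nkx2-1, Nkx2-4 and Nr5a1 had no count in the cerebellum, where Nkx2-1 was at least 59-fold and Sim1 at least 49.3-fold lower. The list medians were the same whether such genes entered at their fitted value or at their bound, and this held for every list.

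Hox genes, which mark the hindbrain behind the cerebellum and the spinal cord, passed the edgeR test in 0 of 11 genes measured out of 39, with a median of -2.49 (-1.24 without cerebellum replicate 5). At an unadjusted p under 0.05 the count was 0 in either direction, and DESeq2 called 2 of them lower. Without mouse as a block edgeR called 2 lower, among them Hoxb5 (-3.33). The result also depended on replicate 2, since without it in either tissue 8 of the 11 were lower, 6 of them beyond 2-fold, with a median of -4.89 without the cerebellar library. Their summed level was 1.03, 13.3, 0.419, 0.0275 and 0.49 CPM in the cerebellum, where replicate 2 was highest. In the cerebrum it was 1.49, 4.61, 0.362, 31.1, 21.3 and 45.2 CPM in replicates 1 to 6, so that 3 libraries lay well above the other 3. Hoxb5 was at 2.10 CPM in cerebellum replicate 2 and at 0.0723 to 11.5 CPM in the cerebrum. The cause of the split was not tested.

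The transporters that define glutamatergic neurons were lower in the cerebellum. Slc17a6 was at 20.8, 42.9, 20.4, 22 and 104 CPM in the cerebellum and at 40.3, 117 and 147 CPM in the cerebrum (lowest, median, highest). The groups overlapped through cerebellum replicates 2 and 5 and the lowest cerebral library, and within mice it was lower in the cerebellum in 5 of 5. The log2 fold change was -1.53 (SE 0.311, adjusted p 0.00295), a difference that did not pass 2-fold, and -1.79 without cerebellum replicate 5. Slc17a7 was at 1550, 1180, 1200, 1290 and 1040 CPM in the cerebellum and at 1700, 1990 and 2300 CPM in the cerebrum, without overlap (log2 fold change -0.70, adjusted p 0.000428). Per kb of exon, Slc17a7 was at 232 and Slc17a6 at 7.8 CPM in the cerebellum, and at 366 and 20.2 CPM in the cerebrum. Slc17a8 (vGluT3) was rare in both tissues and lower in the cerebellum (-5.50, and -6.63 without replicate 2). Of the 10 genes of glutamate packing and supply, 7 were lower and 3 higher, beside 32.5% and 31.1% of all genes (median -0.56). Slc1a2 (-2.23), among the lower ones, is also on the astrocyte and Bergmann glia list. That list was lower in IP than in total RNA, with medians of -3.33 in the cerebellum and -2.85 in the cerebrum. Among the 3 higher genes of glutamate packing and supply were the glutamine synthetase Glul (0.42) and the glutamine transporter Slc38a1 (0.91). Without replicate 2 or replicate 4 of either tissue 1 gene of the 10 was higher, and Glul did not pass then, without replicate 5 or with library totals. In bulk libraries, fewer expressing cells and less mRNA per cell cannot be told apart.

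Genes of vesicle fusion differed in both directions. Of 39 genes, 6 were higher and 8 lower beyond 2-fold, beside 8.38% and 15.3% of all genes, with a median of -0.21 (-0.32 without cerebellum replicate 5, and -0.38 without cerebrum replicate 1 as well). Stx1a, a syntaxin of the presynaptic membrane, was at 1.48, 1.38, 2.72, 0.961 and 7.69 CPM in the cerebellum and at 371, 476 and 589 CPM in the cerebrum. All cerebellar libraries were below all cerebral ones (log2 fold change -7.79, SE 0.558). The fast calcium sensor Syt2 was at 889, 1080, 1120, 1180 and 1030 CPM in the cerebellum and at 83, 116 and 184 CPM in the cerebrum, again without overlap (3.19, SE 0.18). The synaptotagmins Syt17 (-6.20) and Syt5 (-4.57) and the calcium sensor Doc2a (-5.66, and -6.50 without replicate 5) were lower. Unc13c (Munc13-3), a priming factor of granule cell terminals, was higher at 3.10, and Unc13b was lower at -3.23. Snap25, the most abundant gene of the group, was higher at 0.90.

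Subunits of glutamate receptors differed in both directions. Grin2c, the NMDA receptor subunit of mature granule cells, was at 293, 223, 296, 307 and 261 CPM in the cerebellum and at 8.41, 9.42 and 11.8 CPM in the cerebrum. Grin2b, the subunit of forebrain neurons, was at 2.77, 8.3, 3.62, 4.28 and 11.3 CPM in the cerebellum and at 252, 288 and 374 CPM in the cerebrum. Neither gene overlapped between groups, and their log2 fold changes were 4.86 (SE 0.12) and -5.81 (SE 0.36). Of the other NMDA subunits, Grin3b (2.54) was higher, and Grin3a (-2.21), Grin2a (-0.77), Grin1 (-0.46) and Grin2d (-0.46) were lower, Grin2d not without replicate 2, 3 or 4 of either tissue. AMPA and kainate receptors and their partners were lower beyond 2-fold in 16 of 23 genes and higher in 3, with a median of -2.02. The higher genes were Grik2 (1.91), Neto2 (1.83) and Gria4 (1.52). Among the lower ones were the auxiliary subunits Cnih3 (-6.79, -7.87 without replicate 5 and -4.83 without mouse as a block), Cacng3 (-6.36) and Neto1 (-5.75), and the pore subunits Gria3 (-2.90), Gria1 (-2.45) and Gria2 (-1.57). Metabotropic receptors and Homer scaffolds were lower beyond 2-fold in 7 of 10 genes and higher in 3, among them Grm4 (4.41) and Homer3 (1.88). Grm4, which sits on parallel fibre terminals, was at 1040, 609, 884, 1150 and 779 CPM in the cerebellum and at 36.4, 39.8 and 45.9 CPM in the cerebrum. The groups were separate, and Grm5 (-3.70), Grm7 (-3.61) and Grm2 (-3.53) went the other way.

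Cerebellins bridge presynaptic neurexins and postsynaptic GluD receptors. Of the 12 genes of this group, 3 were higher and 4 lower beyond 2-fold, beside 8.38% and 15.3% of all genes. Their median was -0.12, and 0.01 without replicate 3 of either tissue. Cbln1 was at 3160, 2240, 2310, 2080 and 1760 CPM in the cerebellum and at 45.4, 53.3 and 63.2 CPM in the cerebrum, without overlap (log2 fold change 5.45, SE 0.187). Cbln2 (-4.96) and Cbln4 (-3.09) were lower and so was Grid1 (-2.89). Cbln2 was at 24.1 CPM in cerebellum replicate 5 and at 0.0275 to 2.55 CPM in the other 4, and its difference was -5.90 without replicate 5, -4.35 without replicate 4 and -3.17 without mouse as a block. The neurexins Nrxn2 (0.78) and Nrxn3 (0.93) were higher.

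Subunits of GABA-A receptors did so as well. Gabra6 and Gabrd, which together form the tonic receptors of granule cells, were higher beyond 2-fold. Of the 16 genes listed, which include the scaffold gene Gphn, 6 were lower beyond 2-fold (8 without cerebellum replicate 5), with a median of -1.60. Gabrd was at 472, 325, 414, 421 and 353 CPM in the cerebellum and at 78.1, 88.3 and 89.2 CPM in the cerebrum. The groups were separate (2.21, SE 0.114), while the alpha subunits Gabra5 (-5.25), Gabra4 (-4.65), Gabra3 (-3.89) and Gabra2 (-3.11) were lower. Gabrb2 did not pass the test (0.91), and it passed as higher without replicate 3 of either tissue (1.26 and 1.25), without mouse as a block (0.83) and with DESeq2.

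Among 39 potassium and HCN channel genes, 7 were higher and 13 lower beyond 2-fold, beside 8.38% and 15.3% of all genes, with a median of -0.62. Kcnk3 (3.13), a leak channel of granule cells, Kcnk10 (2.67) and Kcnc1 (2.57), which allows fast firing, were the highest. Kcnc1 was at 1060, 930, 1170, 1190 and 1040 CPM in the cerebellum and at 161, 183 and 208 CPM in the cerebrum, so the groups were separate. Kcnj4 (-8.67, and -10.02 without replicate 5), an inward rectifier of forebrain neurons, Kcnq5 (-5.47) and Kcnip2 (-4.48) were the lowest. Of 24 sodium and calcium channel genes, 2 were higher beyond 2-fold, about the share of all genes, Cacna2d2 (1.95) and the P/Q-type channel Cacna1a (1.66), and 7 were lower, led by Scn3b (-5.86), Scn3a (-4.29) and Cacna1h (-4.13). The median of that list was -0.19.

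Calcium buffers and sensors were lower in 13 of 19 genes and higher in 4, beside 32.5% and 31.1% of all genes, with a median of -1.0. Beyond 2-fold 8 were lower and 2 higher, beside 15.3% and 8.38% of all genes. The higher genes beyond 2-fold were Calb2 (3.37) and Hpcal1 (2.01). Calb2 was at 1330, 1270, 1740, 1510 and 1290 CPM in the cerebellum and at 111, 124 and 189 CPM in the cerebrum, without overlap. Nrgn, Necab1 (-6.04), Necab2 (-4.63), Hpcal4 (-4.57) and Hpca (-4.52) were the lowest. The postsynaptic scaffold was lower beyond 2-fold in 9 of 28 genes and higher in 1, the kinase Camk4 (1.65). The shares of all genes were 15.3% and 8.38%, and the list median was -0.61. Without replicate 5 of either tissue, 2 genes of the list were higher beyond 2-fold. Icam5 (-8.50), an adhesion protein of telencephalic dendrites, Camk2a, the pentraxin Nptx2 (-5.84) and Dlgap2 (-5.78) were the lowest, and without replicate 5 Icam5 was at -9.21 and Dlgap2 at -6.77. The kinase subunit genes Camk2d (1.25) and Camk2b (0.40) were higher, unlike Camk2a.

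Neuropeptide genes were higher in the cerebral neurons. Of 28 precursor genes tested out of 32, 27 were lower in the cerebellum, 20 of them beyond 2-fold (23 without cerebellum replicate 5), with a median of -3.06 (-3.43 without it). The exception, Nxph4, did not pass, and 0 were higher with edgeR, at an unadjusted p under 0.05 or with DESeq2, although Nxph4 passed without replicate 4 of either tissue (0.52 without the cerebellar library). Cck was at 2.26, 2.55, 2.9, 2.22 and 32.9 CPM in the cerebellum and at 391, 452 and 780 CPM in the cerebrum, where the groups were separate despite replicate 5 (log2 fold change -6.95, SE 0.75, and -7.64 without it). Hcrt, the orexin precursor, had no count in the cerebellum and was at least 343-fold lower. Pmch and Trh were described above, and Avp (-9.14), Oxt (-8.52) and Cartpt (-7.06) were also among the lowest. Avp was at -8.54 without replicate 1, -9.79 without replicate 2 and -9.73 without replicate 5, and Cartpt at -6.34 without replicate 1 and -9.39 without replicate 5. Sst was at 60.8 CPM in cerebellum replicate 5 and at 0.192 to 8.33 CPM in the other 4, beside 24.6 to 42.4 CPM in the cerebrum. It passed as lower with all libraries (-3.01) and without replicate 5 (-3.93), but not without replicate 1, 2, 3 or 4 of either tissue (-3.63 to -2.20) or without mouse as a block (-1.16). Of 46 neuropeptide and monoamine receptor genes tested out of 48, 35 were lower beyond 2-fold and 1 was higher, the corticotropin-releasing hormone receptor Crhr1 (1.76), with a median of -3.28 (-4.05 without replicate 5). Crhr1 was at 113, 70.1, 101, 101 and 84.7 CPM in the cerebellum and at 21.5, 28.3 and 30.6 CPM in the cerebrum, without overlap. The muscarinic receptor Chrm1 (-9.50, and -10.97 without replicate 5) and the neurotensin receptor Ntsr1 (-7.03, and -7.73 without replicate 2) were the lowest.

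Early genes that neuronal activity induces were lower beyond 2-fold in 10 of 16 genes and higher in 1, Ier2 (1.49), with a median of -1.76. Ier2 did not pass 2-fold without replicate 1, 4 or 5 of either tissue. Egr3 was at 0.83, 0.372, 0.269, 0.604 and 2.15 CPM in the cerebellum and at 82.1, 121 and 140 CPM in the cerebrum, without overlap (-7.30, SE 0.447). Egr2 (-7.62, and -8.43 without replicate 1), Fosb (-3.99) and Npas4 (-3.82) were lower too. Fos, Dusp1 and Jund did not pass, but Jund did without replicate 4 of either tissue (0.54 without the cerebellar library), with DESeq2 (0.40) and with library totals (0.42). Among 24 neurofilament and microtubule genes, 5 were lower beyond 2-fold, beside 15.3% of all genes, with a median of -0.31. They were Prph (-2.73), Stmn4 (-2.68), Tubb2a (-2.05), Tubb3 (-1.85) and Nefl (-1.34), while Tubb4a (1.22) and Stmn2 (1.08) were the highest without passing 2-fold. Without replicate 1 or replicate 3 of either tissue, 3 were lower beyond 2-fold, and 1 gene was higher beyond 2-fold without replicate 1.

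Axon guidance and adhesion genes were lower beyond 2-fold in 32 of 57 genes and higher in 10, beside 15.3% and 8.38% of all genes (median -1.65). Cdh15 (5.26), the M-cadherin of granule cells, the netrin receptor Unc5b (4.50) and Reln (3.87), the secreted guide of migrating neurons, were the highest. Slit1 (-6.18, and -6.94 without replicate 5), Robo3 (-5.17) and Cdh9 (-5.07) were the lowest. Protocadherins of the clustered families went the other way, with 25 of 55 genes higher and 7 lower, beside 31.1% and 32.5% of all genes. Beyond 2-fold 8 were higher, beside 8.38% of all genes, and the list median was 0.42. Pcdhgc3 (2.91) was the highest of them, and its neighbour Pcdhgc5 (-4.90) was the only cluster member lower beyond 2-fold. Without replicate 3 or replicate 4 of either tissue 4 were lower, and without replicate 2 another gene was lower beyond 2-fold.

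Housekeeping groups differed little. Of 82 cytosolic ribosomal protein genes tested out of 84, 5 were higher and 19 lower, beside 31.1% and 32.5% of all genes, with a median of -0.22. The most negative were Rpl3l (-1.83) and Rpl41 (-0.91) and the most positive Rps27l and Rpl7l1 (both 0.51), Rps27l not passing without replicate 1, 2, 3 or 4 of either tissue. Without 1 library these counts were 1 to 7 higher and 10 to 24 lower, fewest without replicate 4 and replicate 2, and 6 were lower without cerebellum replicate 5 and cerebrum replicate 1. Of 81 nuclear genes of oxidative phosphorylation tested out of 82, 24 were higher, near the share of all genes, and 1 was lower, with a median of 0.22. Without replicate 4 of either tissue 13 were higher and without replicate 2 15, and 7 were lower without replicate 3 and 3 without replicate 1. The lower one was Cox6a2, an isoform of heart, muscle and some interneurons, which had 1 cerebellar count, in replicate 2, and a ratio of cerebrum to cerebellum of 980 (95% counting interval 176 to 38700). Htt, the gene mutated in HD, was at 77.8, 93.4, 89.7, 121 and 94.1 CPM in the cerebellum and at 61.5, 74.6 and 83.6 CPM in the cerebrum. The groups overlapped, but Htt was higher in the cerebellum in 5 of 5 mice (log2 fold change 0.35, SE 0.122, adjusted p 0.0334). It did not pass without replicate 2, 3, 4 or 5 of either tissue, at 0.27 to 0.41. A list of 20 genes was taken from those named by the study for HD. It leaves out others that the study names, such as Drd1 and Penk of the striatal list. Of the 20, 10 were higher and 7 lower in the cerebellum of these controls, with a median of 0.32. Without cerebellum replicate 5 and cerebrum replicate 1, 5 were higher. The cannabinoid receptor Cnr1 (2.77), Plk5 (2.14), Ccnd1 (1.55) and Igfbp5 (1.36) were higher beyond 2-fold, and Cplx3 (-3.20), Pcp4 (-3.17) and Arpp21 (-2.24) were lower beyond 2-fold.

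**Figure D3:**
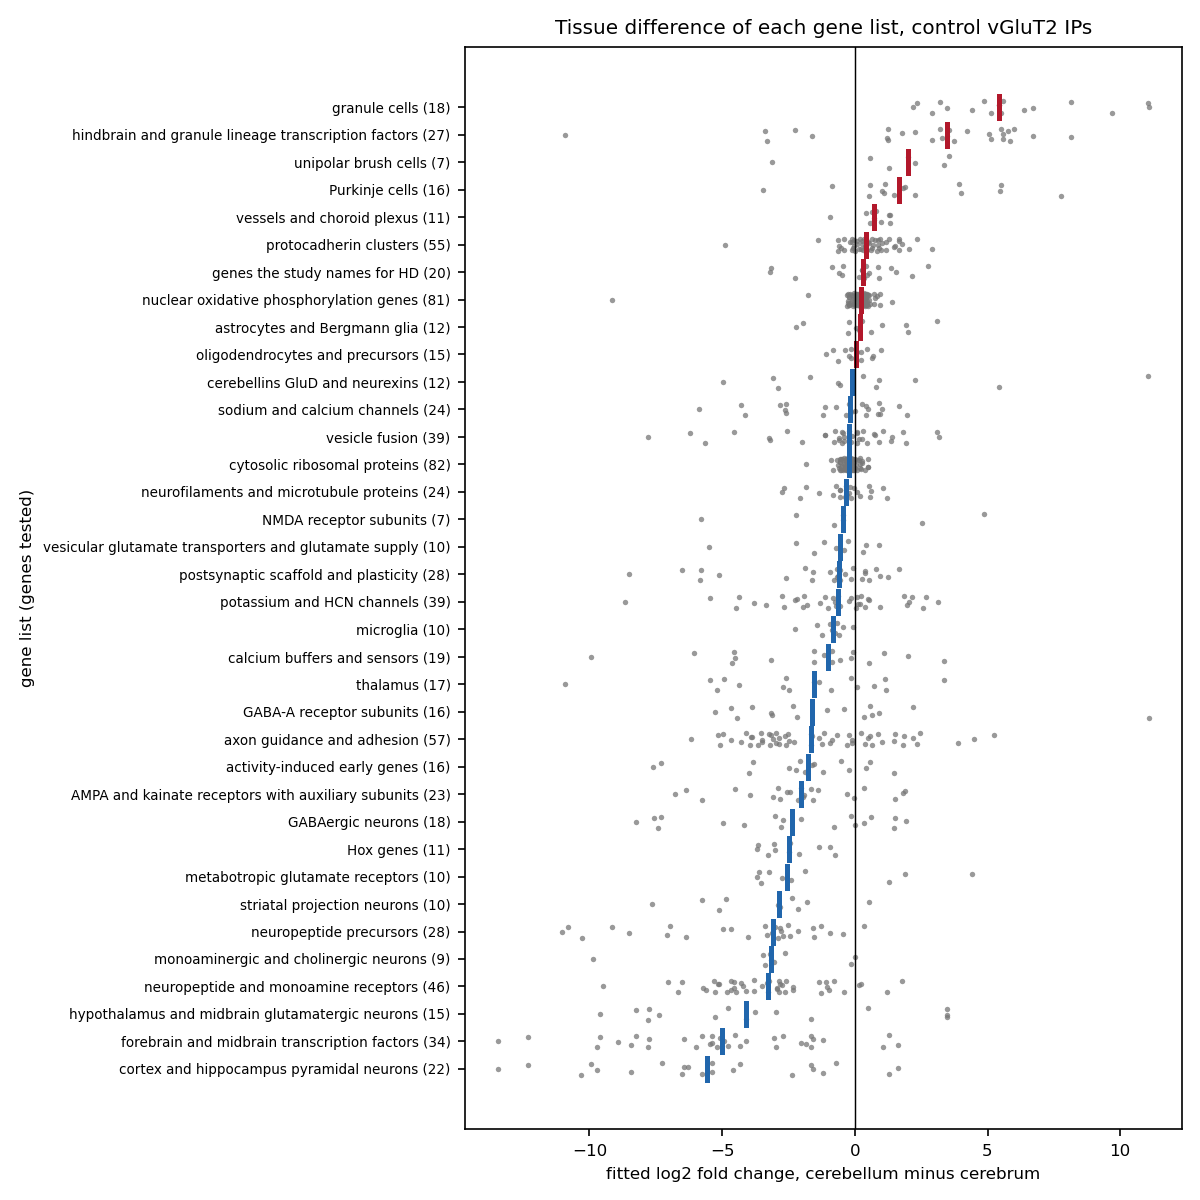
Fitted log2 fold change of cerebellum over cerebrum for each gene (grey point) of 36 lists, with the number of genes tested in parentheses and the list median as a bar. Lists are ordered by median, from 5.44 for granule cells at the top to -5.56 for pyramidal neurons at the bottom. Fitted values of genes with 0 to 3 counts in a tissue are no bounds.

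Markers of cell types outside the targeted class were present in the IPs, and their part in the results was not tested. Purkinje cell markers were higher beyond 2-fold in 9 of 16 genes and lower in 1, Foxp2 (-3.45, and -4.20 without replicate 5, and not passing 2-fold without mouse as a block), with a median of 1.65. Their summed level was 1860, 2970, 2040, 2670 and 2710 CPM in cerebellum replicates 1 to 5 and 1050 to 1320 CPM in the cerebrum, and the calcium channel Itpr1 was the most abundant. Pcp2, found almost only in Purkinje cells, was at 18 ± 5.62 CPM (SD, n = 5) in the cerebellum (7.77, and 8.71 without replicate 1) but lower there in IP than in total RNA by -4.75. GABAergic markers were higher beyond 2-fold in 1 of 18 genes, Gad1 (1.47), and lower in 8, with a median of -2.37 and sums of 275 to 537 CPM in the cerebellum, highest in replicate 2, beside 392 to 523 CPM. Gad1 was the most abundant in the cerebellum and Lgi2 in the cerebrum, and Dlx2, Dlx5 and Dlx6 had no cerebellar count. Without cerebellum replicate 5 the count was 2 higher and 10 lower beyond 2-fold, Gad1 did not pass 2-fold without replicate 1, 2 or 4 of either tissue, and the median was -1.24 without cerebrum replicate 3 and -1.0 without mouse as a block. Striatal projection neuron markers were lower beyond 2-fold in 8 of 10 genes (median -2.87), with sums of 128, 147, 126, 181 and 178 CPM beside 393 to 506 CPM. Pde10a led them in the cerebellum and Ppp1r1b in the cerebrum. Monoaminergic and cholinergic markers were lower beyond 2-fold in 7 of 9 genes tested out of 10 (median -3.17), and in 4 without replicate 1, 2 or 3 of either tissue or without mouse as a block. Their sums were 4.65, 14, 5.06, 2.42 and 20.8 CPM beside 49.6 to 70 CPM, with Th and Slc6a3 the most abundant in cerebellum and cerebrum.

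Between the tissues, 6 of 12 astrocyte and Bergmann glia markers did not overlap, and 1 of 10 microglial, 1 of 15 oligodendrocyte and 1 of 11 vascular markers, beside 47.5% of all genes. The astrocyte and Bergmann glia markers were higher beyond 2-fold in 3 genes and lower in 2, beside 8.38% and 15.3% of all genes (median 0.20). The glutamate transporter Slc1a3 (2.02) and the water channel Aqp4 (1.94) were higher, as was Gdf10 (3.10), and Slc1a2 (-2.23) and Slc6a11 (-1.96) were lower. Their sums were 380, 748, 523, 510 and 436 CPM in the cerebellum and 629 to 994 CPM in the cerebrum, led by Slc1a3 and Slc1a2. Microglial markers were lower beyond 2-fold in 1 gene, Trem2 (-2.26, not passing 2-fold without cerebellum replicate 5 and cerebrum replicate 1), with a median of -0.80 and sums of 29.1, 46.2, 30.1, 30.5 and 39.4 CPM beside 30.9 to 56 CPM. Oligodendrocyte markers were higher in 3 of 15 genes (Cnp, Ermn at 0.69 and Mag at 0.63) and lower in 1 (Opalin). The shares of all genes were 31.1% and 32.5%, and the list median was 0.05. Ermn and Mag did not pass without replicate 2, 4 or 5 of either tissue, where the median was -0.15 to -0.06. Ermn did not pass without cerebellum replicate 5 and cerebrum replicate 1 together, and Opalin did not pass without replicate 1, 2, 3 or 4. The sums, led by Mbp, were 581, 1000, 633, 686 and 799 CPM beside 352 to 759 CPM. Markers of vessels and choroid plexus were higher in 4 of 11 genes (Ttr, Slco1a4, Flt1 and Vtn), near the 31.1% of all genes (median 0.73). Without replicate 2, 3 or 4 of either tissue 1 was higher, and Vtn did not pass without replicate 5 either. Ttr was the most abundant, and the sums were 123, 280, 196, 160 and 36.8 CPM beside 34.3 to 113 CPM. Replicate 2 had the highest cerebellar sum in each of these glial and vascular lists.

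The same contrast in HD mice asks whether other animals show the tissue difference, although these mice also differ in genotype. In them, 1117 of 14199 genes (7.87%) were higher and 1960 (13.8%) lower in the cerebellum beyond 2-fold. Of 3300 genes called beyond 2-fold in controls and tested in HD mice, 3299 had the same sign and 2653 (80.4%) were again beyond 2-fold. The gene without it was Igfbp5, at 1.36 in controls and -0.01 in HD mice (adjusted p 0.912). In the other direction, 87.3% of the 3039 genes beyond 2-fold in HD mice and tested in controls were so in controls. With 1 HD library left out, HD_VglutCer_re_R1 included, 928 to 1349 genes were higher and 1702 to 2309 lower beyond 2-fold. Values of single genes were close for Grin2c (4.86 in controls, 4.85 in HD mice), Calb2 (3.37 and 3.60) and Slc17a7 (-0.70 and -0.77). They were further apart for Cbln3 (11.06 and 8.77), Gabra6 (11.10 and 9.06, the latter 9.73 without HD cerebellum replicate 4) and Slc17a6 (-1.53 and -2.30). Htt was higher in the cerebellum by 0.35 in controls and 0.68 in HD mice. Whether the tissue difference differed between genotypes was not tested. The list medians were 4.84 for granule cell genes, -5.65 for pyramidal neuron genes and -4.38 for neuropeptide precursors in HD mice, beside 5.44, -5.56 and -3.06 in controls.

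Comparison with total RNA asks how the tissue difference of the captured ribosomes relates to that of whole tissue. The IP values here are those of the same libraries as above, so the results are not independent of the first comparison. In the cerebellum, 3706 of 14719 genes (25.2%) were higher and 4105 (27.9%) lower in IP than in total RNA, and in the cerebrum 4693 (31.9%) were higher and 3726 (25.3%) lower. Granule cell genes had a median IP enrichment of 1.14 in the cerebellum and -0.07 in the cerebrum, and Purkinje cell genes had -2.22 and -0.50. The tissue difference was more positive in IP than in total RNA for 2300 genes (15.6%) and more negative for 3919 (26.6%). Under other settings these counts were 2302 to 3298 and 3363 to 3960, and with 1 library left out 1594 to 2469 and 3068 to 4188. Beyond 2-fold these counts were 179 (1.22%) and 888 (6.03%), where DESeq2 called 562 of the more negative kind. More negative means a smaller difference for a gene higher in the cerebellum and a larger one for a gene lower there. Over all genes tested the median difference was -0.125, and it was 0.021 with upper-quartile factors.

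The genes with the most positive difference from total RNA were depleted from the cerebral IPs. Mrgprf was higher in the cerebellum by 8.50 in IP and by 2.99 in total RNA (difference 5.62, SE 0.378, adjusted p 9.45e-07), and its cerebral IPs were below cerebral total RNA by -5.01. The endosomal gene Plekhf1 (difference 4.40), the membrane protein gene Tmem51 (4.09), the signalling ligand Wnt7a (4.02) and the integrin Itgb5 (3.92) had the same form. On the other side, Cd34, a surface sialomucin also known from vessels, was lower in the cerebellum by -8.21 in IP and by -2.39 in total RNA (difference -5.81, SE 0.323). The secreted protein gene Ccn3 (-5.79), the uncharacterised C130074G19Rik (-4.66) and Kctd4 (-4.52, and -5.30 without cerebellum replicate 5) followed. Kitl, the ligand of the receptor Kit, went in opposite directions, at -2.04 in IP and 3.08 in total RNA (difference -5.04, SE 0.432, adjusted p 4.44e-06). The same was seen for Calb1, the calbindin of Purkinje cells (-0.85 and 3.59), for Pcp4 (-3.17 and 1.20), for Gria1 (-2.45 and 0.97) and for Bhlhe22 (-1.58 and 1.07). Of the genes beyond 2-fold in the IPs, 1025 of 1193 higher ones and 1572 of 2162 lower ones passed in the same direction in total RNA, and 9 and 83 passed in the opposite one. Of all genes tested there, 33.8% passed as higher and 29.0% as lower in total RNA. By the difference of differences, 569 of the 1193 higher and 1155 of the 2162 lower genes differed more that way in IP. Another 90 and 25 differed less. Their choice by the same IP libraries favours the former, so no conclusion is drawn from the excess.

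By lists, the tissue difference was more positive in IP than total RNA for 12 of 18 granule cell genes, beside 15.6% of all genes. It was more negative for 11 of 16 Purkinje cell genes, beside 26.6% of all genes. It was more negative for 14 of 23 AMPA and kainate receptor genes, 9 of 10 metabotropic receptor and Homer genes, 10 of 16 GABA-A receptor genes and 34 of 57 axon guidance genes. GABA-A genes had a median of 0.67 in total RNA and -1.60 in IP, and AMPA and kainate genes had -0.07 and -2.02.

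The Gad2 line asks which differences are shared with IPs of GABAergic neurons. Whether mRNA of other cells was carried into the Gad2 IPs was not tested, so a shared difference need not be one of GABAergic neurons. These IPs come from other mice and libraries, but the difference of differences again uses the vGluT2 IPs described above. Of 1176 genes higher beyond 2-fold in vGluT2 neurons and tested in both, 871 also passed as higher in Gad2 neurons and 52 passed as lower. Of 2138 lower genes, 1475 also passed as lower and 212 passed as higher. Of all genes tested there, 28.1% passed as higher and 26.6% as lower in Gad2 neurons. By the difference of differences, 713 of 1176 higher and 1190 of 2138 lower genes differed more that way in vGluT2 than Gad2 neurons. Another 82 and 147 differed less. Since these genes were chosen for a large difference in the same vGluT2 libraries, the choice itself favours the former. No conclusion is drawn from the excess. The difference of differences was positive for 2789 of 14441 genes (19.3%) and negative for 3191 (22.1%), and beyond 2-fold for 641 (4.44%) and 1261 (8.73%). Its median over all genes was -0.002, and 0.126 when libraries were scaled by their totals.

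Several genes differed in opposite directions. Neurod6, a factor of cortical pyramidal neurons, was at 1.89, 3.27, 1.35, 0.961 and 1.03 CPM in the vGluT2 cerebellum and at 106, 149 and 155 CPM in the vGluT2 cerebrum (lowest, median, highest). In Gad2 neurons it was at 15.7 ± 3.86 CPM in the cerebellum and 4.65 ± 2.75 CPM in the cerebrum (SD, n = 6 each). The tissue difference was thus -6.45 in vGluT2 and 1.88 in Gad2 neurons (difference -8.31, SE 0.389, adjusted p 3.21e-09). Dkkl1 (-7.26 and 1.02), the growth factor-binding Igfbp6 (-6.16 and 0.71) and the G protein subunit Gng13 (-1.47 and 5.09) had the same form, and Cck was lower in vGluT2 neurons (-6.95) without passing in Gad2 neurons (0.41). Otx2, a homeobox factor that granule cells of the posterior lobules keep, was higher in the vGluT2 cerebellum (5.06) and lower in the Gad2 cerebellum (-1.49), a difference of 6.58 (SE 0.551, adjusted p 4.38e-07). Syndig1l, a synapse protein gene of the striatum, was at 1.47 and -4.41. Others with large positive differences had 1 direction in both classes, Car9, a carbonic anhydrase, with 7.87 (8.52 without replicate 2) and 1.41 and Pdyn (prodynorphin) with -4.65 and -10.77. The metabotropic receptor Grm2 was lower in vGluT2 (-3.53) and higher in Gad2 neurons (2.81), and Calb2 was higher in vGluT2 (3.37) and lower in Gad2 neurons (-0.60).

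**Figure D4:**
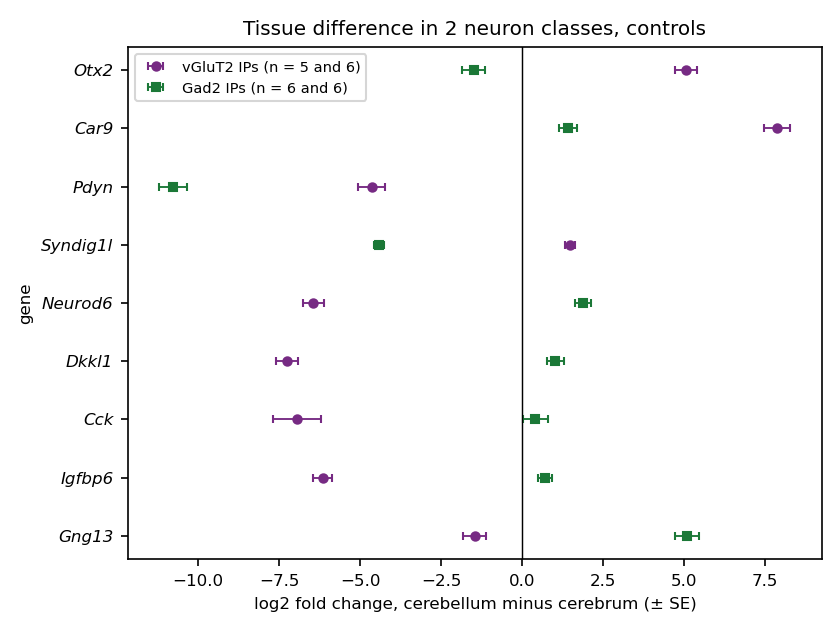
Log2 fold change of cerebellum over cerebrum, with its SE, for 9 of the genes with the largest differences between lines. Circles are vGluT2 IPs (5 cerebellar and 6 cerebral libraries) and squares Gad2 IPs (6 and 6), all from controls. Otx2 and Syndig1l are above 0 in vGluT2 and below 0 in Gad2 neurons, and Neurod6, Dkkl1, Igfbp6 and Gng13 are the reverse.

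By lists, the difference of differences was positive for 13 of 18 granule cell genes, beside 19.3% of all genes. Granule cell genes had median tissue differences of 5.44 in vGluT2 IPs and 2.91 in Gad2 IPs, beside 4.2 in total RNA of the vGluT2 line. Whether granule cell mRNA was carried into the Gad2 IPs was not tested. Calls were negative for 12 of 22 pyramidal neuron genes, 15 of 23 AMPA and kainate receptor genes and 14 of 16 Purkinje cell genes. The negative share of all genes was 22.1%, and 3, 3 and 0 genes of these lists were positive. Of 10 striatal genes 9 were positive, with median tissue differences of -2.87 and -7.73. Neuropeptide precursors were lower in the cerebellum of both classes, with medians of -3.06 and -3.80, and so were early genes, with -1.76 and -2.57.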

How the data were processed

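The authors deposited estimated counts per gene, the expected counts that Salmon made from STAR alignments in nf-core/rnaseq 3.0 on GRCm38.p6, as 1 table of 106 libraries. The table holds 55401 genes and 92 spike-ins, and 8.57% of its values are not whole. Counts were rounded and spike-ins dropped. Types, positions and exon lengths came from GENCODE M21, which matched 55141 genes, 21897 of them protein coding. Promoter sequences came from RefSeq (GRCm38.p6).

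Each comparison was fitted on its own libraries in edgeR 4.0.16 (R 4.3.3, limma 3.58.1): TMM factors, protein-coding genes of which the mean count was over 10, mouse as a block, quasi-likelihood test (glmQLFit, glmQLFTest), glmTreat against a log2 fold change of 1 for the 2-fold rule, and Benjamini-Hochberg over all genes tested. Adjusted p of 0.05 or less counted as passing. Tables used Python 3.11.15, numpy 2.4.6, pandas 2.3.3, scipy 1.17.1 and matplotlib 3.10.9. Pairing rests on mouse codes in the sample descriptions, and deviations from the group mean correlated at -0.27 to 0.34 between the tissues of 1 mouse and at -0.44 to 0.52 between those of different mice, so they do not show the pairing. The mouse with a cerebral library only adds nothing to the paired difference. No libraries were duplicates (Pearson r 0.9644 to 0.9958 within groups, chi-square per degree of freedom 23.1 to 191). Component scores used the 500 most variable genes.

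Genes without counts in a tissue have at-least folds from a floor of 3 counts over the group, and those with 1 to 3 counts have ratios with an exact 95% Poisson interval. Named by rule were, per direction, the 10 largest fold changes among genes beyond 2-fold, without overlap and with a mean of at least 10 CPM in the higher group, the 5 largest level differences per kb of exon, the 5 largest differences from total RNA and from Gad2 IPs, the extreme, most abundant and exceptional members of the lists, and Slc17a6, Rpl22 and Htt. Not every gene the rule picked was described. Gm14440, Pram1, Igfbp5 as an exception, and genes named for libraries that stood apart (Tcf7l2, Shox2, Lhx9, Cck, Sst, Cbln2, Hoxb5, Snap25) were chosen after their values were seen. The samples compared and the lists were chosen with earlier results of these data known. The list for HD is a selection from the genes that the study names, in part from results on these samples.

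Alternatives were no block, paired libraries only, DESeq2 1.42.0, its size factors in edgeR, library totals, upper-quartile factors, no count filter, filterByExpr, all gene types, median transcript length, each library left out in turn, and both libraries that stood apart left out.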

Additional observations from a re-analysis of the deposited data

Results flagged for a closer look

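Library totals, component 1 scores, the summed levels of 36 lists and the levels of 46 genes named by rule were searched, within each group of control vGluT2 IPs, for a library whose gap to its nearest neighbour took up most of the group's range (Dixon's criterion). Chance alone gives about 1 such library in 20 groups, and most of these measures share genes and libraries. In the cerebellum 5 of 36 list sums and 8 of 46 genes had one, and in the cerebrum 6 and 10 did. Cerebellum replicate 5 was the library in 8 of the cerebellar cases and cerebrum replicate 1 in 14 of the cerebral ones. What set these libraries apart was not tested.

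Cerebellum replicate 5 was the highest of its group for neuropeptide precursors (738 CPM in sum, the others 332 to 434) and for neuropeptide and monoamine receptors (528 CPM, the others 399 to 416). It was also highest for Nrgn (203 CPM, the others at most 2.06), Cck (32.9 CPM, at most 2.9), Kctd4 (2.84 CPM, at most 0.798), Ddn (2.79 CPM, at most 0.509) and Crym (0.441 CPM, at most 0.0503), and for Gm11549 (0.196 CPM), which had no count in the others. Cerebellum replicate 2 was highest for the Hox genes at 13.3 CPM, the others being at most 1.03. Cerebellum replicate 4 was highest for the postsynaptic scaffold at 8480 CPM (the others 7880 to 8050). Cerebellum replicate 1 was highest for the pyramidal neuron list at 2220 CPM (the others 1770 to 1850), for Cnpy1 at 98.6 CPM (76.6 to 82.3) and for Selenow at 244 CPM (136 to 165).

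Cerebrum replicate 1 was the lowest of its group for granule cell genes (428 CPM, the others 534 to 570) and forebrain and midbrain factors (1710 CPM, 2340 to 2690). It was also lowest for metabotropic receptors and Homer scaffolds (419 CPM, 599 to 696) and the list of HD genes (9470 CPM, 12100 to 13100). It was the highest for cytosolic ribosomal proteins (21100 CPM, 10600 to 12800) and neuropeptide precursors (2320 CPM, 1530 to 1800). Among single genes it was highest for Nrgn (3490 CPM, the others 2070 to 2460), Selenow (814 CPM, 434 to 570), Cck (780 CPM, 391 to 504), Igfbp6 (131 CPM, 75.5 to 95.4), Dkkl1 (55.2 CPM, 32.2 to 36.2) and Gng13 (52.5 CPM, 17.8 to 25.7). It was lowest for Kitl (27.9 CPM, the others 72.5 to 92.0) and Kctd4 (20.5 CPM, 34.6 to 42.9). Cerebrum replicate 5 was highest for Crtam (0.531 CPM, the others at most 0.167) and held all cerebral counts of Chil5 (0.0693 CPM). Cerebrum replicate 2 had the highest total, 68022491 counts, the others 29903359 to 43035651.

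Among the 219 genes named for the main comparison, some had a tissue difference past the test in opposite directions in a pair of preparations or lines, with a difference of differences that also passed. The values below are these differences on the log2 scale. Against total RNA there were 14 such genes. Those higher in the cerebellum in the IPs and lower in total RNA were Syndig1l (2.82), Ccnd1 (1.97), Cnp (1.72), Mag (1.57), Glul (1.22) and Camk2b (0.81). The reverse held for Kitl (-5.04), Calb1 (-4.41), Pcp4 (-4.40), Gng13 (-4.08), Gria3 (-3.97), Gria1 (-3.40), Bhlhe22 (-2.65) and Lgi2 (-1.88).

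Against Gad2 IPs there were 26. Higher in the vGluT2 and lower in the Gad2 cerebellum were Otx2 (6.58), Syndig1l (5.89), Calb2 (3.97), Grik2 (3.69), Neto2 (3.18), Kcnc1 (2.85), Gabrd (2.76), Prox1 (2.33), Camk4 (2.08), Ccnd1 (2.04), Snap25 (1.38) and Camk2b (1.22). The reverse held for Neurod6 (-8.31), Dkkl1 (-8.28), Igfbp6 (-6.86), Gng13 (-6.55), Bhlhe22 (-6.45), Grm2 (-6.33), Kitl (-5.55), Pcp4 (-4.57), Calb1 (-4.40), Gria3 (-4.22), Unc13b (-3.98), Grin3a (-2.76), Lgi2 (-1.61) and Grin2d (-1.17). The vGluT2 calls of Glul, Mag and Grin2d did not pass without some single libraries, as given with their values.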

How the results depend on the processing

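Results were recomputed with 1 choice changed at a time. In the control comparison the numbers of genes past the test were within 1.5 times the reported ones in every alternative run. Under other settings they were 4418 to 4876 higher and 4552 to 5185 lower, and beyond 2-fold 955 to 1408 higher and 1946 to 2565 lower. With 1 library left out they were 3779 to 4445 higher and 4022 to 4629 lower, and beyond 2-fold 1023 to 1201 higher and 1939 to 2265 lower. Leaving out cerebellum replicate 5 and cerebrum replicate 1 together, an alternative chosen after seeing the data, gave 3945 higher and 4244 lower, and beyond 2-fold 1074 and 2177. Among counts over whole comparisons, a pair changed by more than 1.5 times. DESeq2 called 562 in place of 888 genes as more negative in IP than in total RNA beyond 2-fold, and with the median transcript length 3 of the 10 genes with the largest levels per kb kept their place. The cause was not tested for either. Of the counts within lists, 1416 of 1440 under other settings, those without both libraries included, and 1484 of 1584 with 1 library left out were within 1.5 times.

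Of 2456 values of named genes under these other settings, 2434 kept their direction and their side of the threshold, and of 3003 with 1 library left out 2901 did. A change of direction was found for 3 genes. Without mouse as a block, Gm14440 was at -1.47, and with 1 library left out it was at 0.00 to 6.49. Igfbp5 in HD mice was at 0.05 with library totals and at -0.07 to 0.04 with 1 library left out. Dusp1 was at -0.43 to 0.01 with 1 library left out. Igfbp5 and Dusp1 did not pass the test as reported. The paired design decided some calls, since without mouse as a block the thalamic genes Tcf7l2 (-1.60), Shox2 (-2.17) and Lhx9 (-1.19) did not pass. Of the 219 named genes 41 moved by more than 1.5 times without 1 library, 28 of them without replicate 5 of either tissue, and 21 did without mouse as a block. List medians kept their sign under every scaling run.

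The results have further limits. A library of bulk tissue averages many neuron types, and the cerebral sample mixes regions, so a difference between tissues is also one of composition, and fewer cells and less mRNA per cell cannot be told apart. Cre under Slc17a6 marks cells by lineage. Tissue was handled as separate samples, and dissection cannot be told apart from tissue. With 5 and 6 libraries, genes near the threshold changed their call when 1 library was left out. At 29903359 to 68022491 counts a library, genes with 0 to 3 counts in a tissue have only bounds or wide intervals. Markers of other cell types were present in the immunoprecipitated mRNA, as given by list, and whether they came from other cells was not tested.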
